A study of Mus musculus with 11 samples.

Results

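The autophagy machinery genes described here are 33 protein-coding genes out of 47131 genes in a count table of mouse colon organoids. They were taken by symbol: every gene named Atg with a number, the Map1lc3 and Gabarap genes, Ulk1, Ulk2, Wipi1 and Wipi2, and 6 named genes, Sqstm1, Becn1, Rb1cc1, Optn, Nbr1 and Tfeb. The rule itself uses symbols and no measured value, but it was set with earlier results of these data known. All 33 passed the filter on low counts, as did 14840 genes in all. Organoids are small epithelial structures grown from tissue, here in Matrigel from colon, and the donor animals were C57BL/6J females at 6 to 8 weeks of age. Of the 11 RNA libraries, 6 followed exposure to NAP at 10 pM over 48 h and 5 were controls. One label calls the controls untreated and another says that they received PBS as the vehicle. NAP is not spelled out in the labels, which give 1 batch for all libraries. The titles call the libraries biological replicates, but the labels do not say whether these came from separate animals or cultures. The spread behind each p-value is therefore that between libraries and may be technical in origin.

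Autophagy encloses cytoplasm, organelles or aggregates in a membrane vesicle, the autophagosome, and delivers it to the lysosome for breakdown. The ULK1 kinase complex starts the process, the Beclin 1 lipid kinase complex marks the forming membrane with PI3P, and ATG9 and ATG2 supply lipid. A ubiquitin-like cascade then attaches LC3 and GABARAP proteins to that membrane, where cargo receptors such as p62 bind them. In the intestine the pathway is known for its role in Paneth and goblet cell secretion and in the defence against invading bacteria, and the human ATG16L1 gene is associated with Crohn's disease. Much of its control acts on proteins, by phosphorylation and lipidation, which transcript levels do not measure.

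The libraries held 16546263 to 21947414 counts each. Summed levels of 8 epithelial markers were 9360 to 17021 CPM (counts scaled to the library's adjusted total) in controls and 10043 to 13622 after NAP, whereas 10 immune markers summed to 1.89 to 7.37 and 2.40 to 15.1 CPM and 10 fibroblast markers to 4.89 to 34.9 and 8.60 to 59.1. Il25, a tuft cell gene, was the only marker at 0 in every library. The share of counts on the mitochondrial chromosome was 3.73 ± 0.90% in controls (SD, n = 5) and 6.51 ± 1.25% after NAP (n = 6, two-sided exact permutation p = 0.00433, adjusted 0.0130 over 3 library measures). The rank correlation of a gene's level with its GC content, taken across genes within a library relative to the mean of all libraries, was 0.20 ± 0.14 in controls and -0.20 ± 0.23 after NAP (exact permutation p = 0.0108, adjusted 0.0162). Count totals did not separate the groups (exact permutation p = 0.818). The part of these library differences in the results below was not tested, beyond the fit with GC trends removed that is given for some genes. Fewer cells of a type and less RNA per cell cannot be told apart in bulk samples.

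Levels between genes were compared by the authors' FPKM values, which are per length of gene. Gabarap, the founding member of the GABARAP branch of ATG8 proteins, had the highest level, with a mean of 327 FPKM over the 11 libraries, and made up 35.4% of the summed FPKM of the 33 genes. Gabarapl2 followed at 69.0 FPKM, then Atg101 at 43.2, Becn1 at 42.1, Atg9b at 39.4 and Sqstm1 at 36.5. The last 4 of these lay close together: their order differs by less than the spread of Atg9b and Atg101 between libraries. The lowest were Ulk2 at 1.05 FPKM, Atg4c at 1.60, Atg16l2 at 1.90 and Atg10 at 2.06. The members together took 0.231 ± 0.00869% of all counts in controls (SD, n = 5) and 0.225 ± 0.0138% after NAP (n = 6).

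**Figure D1:**
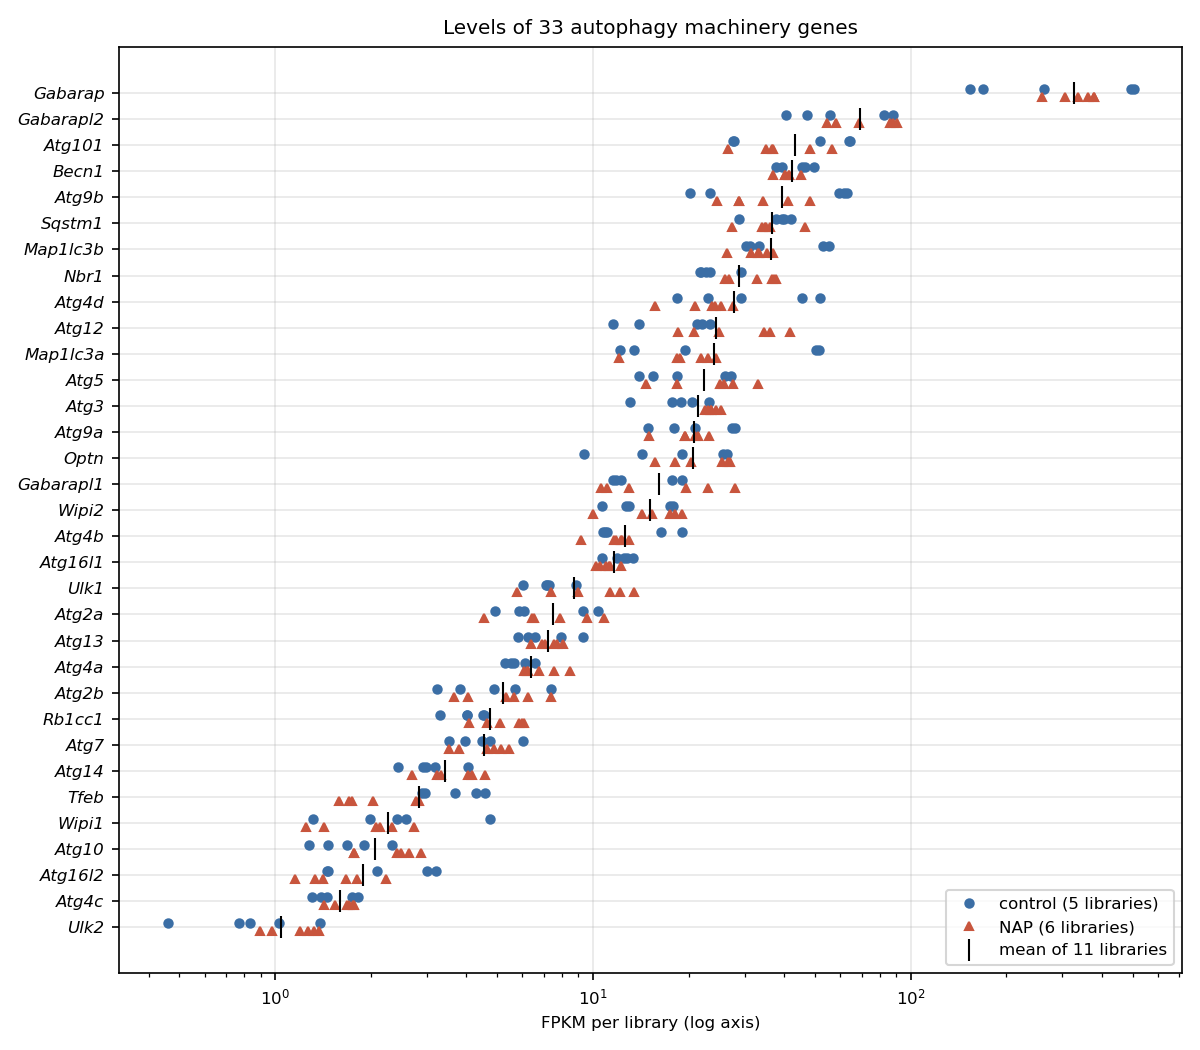
FPKM of the 33 autophagy machinery genes (log axis), ordered by mean, with 1 point per library of 5 control and 6 NAP libraries. Gabarap lies apart at a mean of 327 FPKM, and the points of both groups overlap for most genes.

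No member passed the test for a difference between NAP and control organoids. With edgeR's quasi-likelihood test and an adjusted p of 0.05, 0 of 33 were called higher and 0 lower, where 1.05% of the 14840 tested genes were called higher and 1.07% lower (2.12% in either direction). Against shares that small, a count of 0 among 33 genes is near the background and is not particular to these genes. At an unadjusted p below 0.05 there were 6 members (18.2%), of which Nbr1, Atg12, Rb1cc1 and Atg3 had higher and Tfeb and Atg4d lower means after NAP, against 23.6% of all tested genes. Log2 fold changes were positive for 20 members and negative for 13, with a median of 0.08 beside -0.07 for all tested genes. The 95% interval of the change lay inside a 2-fold change in either direction for 26 of the 33 (78.8%), compared with 48.5% of all tested genes. The share was also 77.6% among 147 tested genes that act around this machinery, described below, so it is not particular to the members. For Tfeb, Atg12, Atg4d, Atg16l2, Map1lc3a, Atg9b and Wipi1 the interval reached past 2-fold. Limma on voom weights or on log FPKM also called 0 members, while DESeq2, which called 11.3% of all tested genes, called Nbr1 higher and Tfeb lower.

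**Figure D2:**
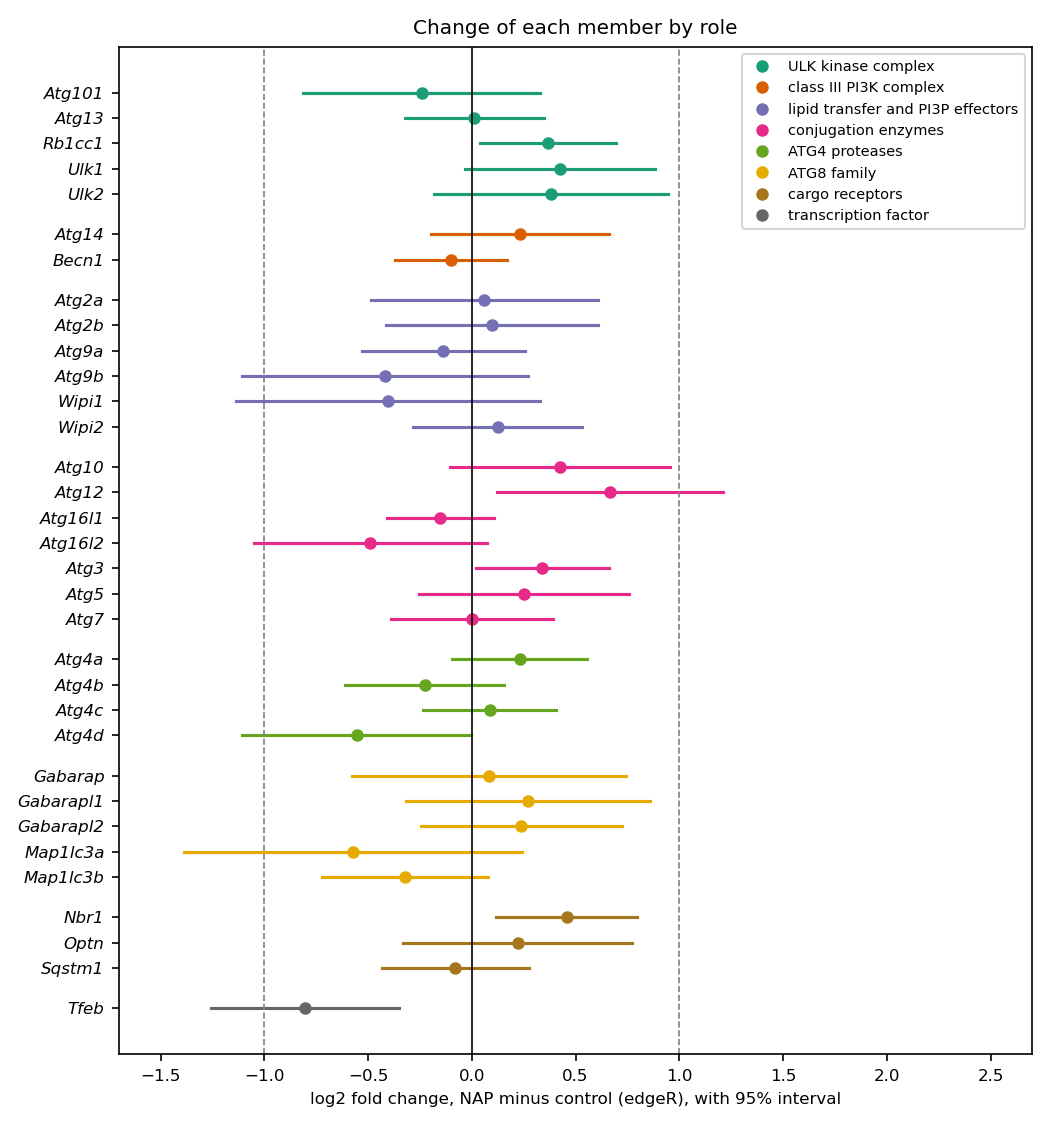
Log2 fold change of each member, NAP minus control, with its 95% interval from edgeR's fit across all genes, grouped by role; dashed lines mark a 2-fold change. Values run from -0.80 for Tfeb to 0.67 for Atg12, and no member passed an adjusted p of 0.05.

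In the ULK complex, 4 of 5 members had positive changes and 0 were called. Rb1cc1, which encodes the scaffold FIP200, stood at 39.5, 28.2, 34.9, 39.1 and 34.5 CPM in controls 1 to 5, and its NAP libraries ran from 35.2 through a median of 47.0 to 52.5. The NAP range starts inside the control range and extends above it (log2 change 0.37, SE 0.15, adjusted p = 0.170). With GC and length trends removed the change turned to -0.11 (adjusted p = 0.657). Ulk1, the main kinase of the complex, was at 43.9, 35.6, 43.1, 52.5 and 42.3 CPM in controls and at 34.5, a median of 60.5 and at most 79.2 after NAP. NAP libraries 1, 2, 4 and 5 lay above every control, NAP 3 within the control range and NAP 6 below every control (0.43, adjusted p = 0.243). Atg101, which stabilizes ATG13, was at 55.0, 124, 102, 54.6 and 126 CPM in controls and between 52.3 and 110 (median 71.7) after NAP, so the groups overlapped, with controls 2 and 5 above every NAP library (-0.24, adjusted p = 0.607). Atg13, the adaptor of the kinase, was nearly level, at 28.2 ± 5.64 CPM in controls and 28.5 ± 2.22 after NAP, with a log2 change of 0.01 (95% interval -0.32 to 0.35). Ulk2, the low paralog of Ulk1, was at 9.97 ± 3.82 and 13.0 ± 2.21 CPM. On the FPKM scale Ulk1 made up 89.3% of the Ulk1 and Ulk2 sum in controls and 88.4% after NAP.

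Of the lipid kinase complex, the rule takes Becn1 and Atg14. Becn1, the core Beclin 1 subunit, was at 115, 123, 99.2, 93.9 and 115 CPM in controls and between 92.2 and 114 (median 101) after NAP. The groups overlapped, and the interval of its log2 change ran from -0.37 to 0.17. Atg14, the subunit that directs the complex to autophagosome formation, was at 11.1 ± 2.04 CPM in controls and 13.1 ± 2.46 after NAP (0.23, adjusted p = 0.499).

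Among the lipid suppliers and PI3P readers, Atg9b had the largest SD of log2 CPM between controls (0.83). It encodes one of the ATG9 lipid scramblases, and stood at 254, 81.7, 244, 256 and 94.9 CPM in controls 1 to 5 and between 99.3 and 197 (median 129) after NAP. Controls 1, 3 and 4 were above every NAP library and controls 2 and 5 below every one of them, which gave a log2 change of -0.42 with an interval from -1.11 to 0.27 (adjusted p = 0.446). Without controls 2 and 5 the change was -0.83 (edgeR adjusted p = 0.0488, in a fit that called 5.32% of all genes), and without controls 1 and 4 it was 0.01. Atg9b overlaps 294 bases of Nos3 on the opposite strand, which had 3 to 18 counts per library beside 1169 to 5649 for Atg9b. Atg9a, its paralog, was at 99.4 ± 25.5 CPM in controls and 90.3 ± 12.3 after NAP, so that Atg9b made up 64.1 ± 18.5% of the Atg9a and Atg9b FPKM in controls (n = 5) and 62.5 ± 7.88% after NAP (n = 6).

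The lipid transfer genes Atg2a and Atg2b had log2 changes of 0.06 and 0.10, with intervals from -0.49 to 0.61 and from -0.42 to 0.61. Wipi2, which recruits ATG16L1 to PI3P, was at 63.6 ± 13.5 CPM in controls and 69.4 ± 14.3 after NAP, and the less abundant Wipi1 was at 4.92 ± 2.44 and 3.73 ± 1.05. Neither was called (adjusted p = 0.724 for Wipi2 and 0.493 for Wipi1).

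The conjugation cascade joins ATG12 to ATG5 through ATG7 and ATG10, and LC3 proteins to lipid through ATG7, ATG3 and the ATG12-ATG5-ATG16L1 complex. Changes were positive for 5 of its 7 members and 0 were called. Atg12 was at 37.9, 68.2, 72.4, 45.2 and 75.3 CPM in controls and ran from 60.1 through a median of 96.1 to 133 after NAP. NAP libraries 2, 4, 5 and 6 lay above every control and NAP 1 and 3 within the control range (log2 change 0.67, SE 0.25, interval 0.12 to 1.21, adjusted p = 0.137). Atg3, the enzyme that transfers LC3 to lipid, was at 27.6, 36.6, 48.8, 39.4 and 42.5 CPM in controls and within 46.7 to 53.0 (median 48.6) after NAP. Its NAP libraries stood above 4 of the 5 controls and around control 3 (0.34, SE 0.15, adjusted p = 0.191).

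Atg16l2, a paralog of Atg16l1, was at 14.2, 19.9, 9.95, 9.76 and 21.4 CPM in controls and between 7.78 and 14.8 (median 10.4) after NAP, with controls 2 and 5 above every NAP library (-0.49, adjusted p = 0.275). Atg16l1 itself spread little, at 42.0 ± 3.52 CPM in controls and 37.8 ± 2.17 after NAP (-0.15, interval -0.41 to 0.11), and made up 84.8% of the Atg16l FPKM in controls and 87.4% after NAP. The remaining enzymes were Atg5 (0.25, adjusted p = 0.535), Atg10 (0.42, adjusted p = 0.315) and Atg7. Atg7, the E1-like enzyme, was at 20.5 ± 4.09 CPM in controls and 20.5 ± 3.40 after NAP, and its log2 change of 0.00 had an interval from -0.39 to 0.39. Its counts ran from 292 to 442 per library beside 274 to 1596 for Vgll4, which overlaps 611 bases of it on the opposite strand, so the split of reads there is uncertain without the strand setting.

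Promoters of this cascade are shown because TFEB, a member of the list, binds E-box motifs known as CLEAR elements. RefSeq promoters (GRCm38.p6, a different build from the GRCm39 of the count table) were matched by symbol for 28 of the 33 members, and not for Atg12, Atg16l1, Becn1, Map1lc3a and Rb1cc1. The E-box core CACGTG was searched on both strands in the 250 bases before each start, together with GTCACGTG and with the full CLEAR palindrome, which adds AC at the end of that run; each motif contains the one before it. The core was found in 3 of 33 member promoters (9.09%, those of Atg3, Atg5 and Atg7) and in 6.02% of 32851 promoters. GTCACGTG was found in 2 member promoters (6.06%, Atg3 and Atg7) and in 1.85% of all, and the full palindrome in 0 and in 0.24%. The windows below are 30 bases long, 5′ to 3′ on the plus strand, with the core in capitals. The Atg3 promoter holds the core 94 and 71 bases before the start, the Atg7 promoter 132 and the Atg5 promoter 14 bases before it.
Atg3, chr16:45158723-45158752: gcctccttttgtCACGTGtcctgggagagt
Atg3, chr16:45158746-45158775: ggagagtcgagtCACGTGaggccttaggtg
Atg7, chr6:114670952-114670981: catattggtggtCACGTGtgcagtaagtga
Atg5, chr10:44268309-44268338: agggcggagcgcttgcCACGTGgtcttggt
The letters gtCACGTG stand in both Atg3 windows and in the Atg7 window, and the Atg5 window holds the core without the preceding gt. These matches describe the letters only, and the log2 changes of the 3 genes, 0.34, 0.00 and 0.25 for Atg3, Atg7 and Atg5, did not pass the test.

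ATG4 proteases cut LC3 and GABARAP precursors and later free them from the membrane. Atg4d, which had the highest FPKM of the 4 paralogs, was at 78.6, 173, 99.1, 62.1 and 153 CPM in controls and between 52.9 and 92.8 (median 80.2) after NAP. Controls 2, 3 and 5 were above every NAP library and controls 1 and 4 among them (log2 change -0.56, SE 0.26, adjusted p = 0.208). Without controls 1 and 4 the change was -0.85 (edgeR adjusted p = 0.0343, in a fit that called 8.28% of all genes), and without controls 2 and 5 it was -0.03. Atg4d made up 59.9 ± 6.62% of the Atg4 FPKM in controls and 52.7 ± 4.65% after NAP. Atg4b, the broadly acting protease, was at 51.3 ± 14.2 and 43.8 ± 4.85 CPM, and Atg4c at 20.4 ± 2.99 and 21.6 ± 1.90. Atg4a was at 17.9 ± 1.56 and 21.0 ± 2.95 CPM; it shares 2867 bases with Psmd10 on the opposite strand, whose 219 to 462 counts per library were similar in size to the 241 to 554 of Atg4a. Atg4d likewise shares 1381 bases with Kri1, which had 230 to 543 counts beside 1108 to 2471.

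The 5 ATG8 genes, whose proteins coat the autophagosome and bind cargo receptors, differed in direction and in spread, and 0 were called. Gabarap was at 182, 568, 308, 196 and 582 CPM in controls 1 to 5 and between 301 and 435 (median 403) after NAP. The NAP libraries lay in the middle of the control range, with controls 2 and 5 above and controls 1 and 4 below every one of them (log2 change 0.08, interval -0.58 to 0.74, adjusted p = 0.892). Without controls 2 and 5 the change was 0.79 (adjusted p = 0.0525) and without controls 1 and 4 it was -0.29 (adjusted p = 0.395).

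Map1lc3a, which encodes LC3A, was at 14.8, 54.1, 21.2, 13.1 and 55.3 CPM in controls and between 13.1 and 26.2 (median 22.0) after NAP, with controls 2 and 5 above every NAP library. Its log2 change was -0.57 (interval -1.39 to 0.24, adjusted p = 0.380), and 0.40 without controls 2 and 5 and 0.29 with GC and length trends removed. Map1lc3b, which encodes LC3B, the usual marker protein of autophagosomes, was at 81.6, 145, 83.6, 88.3 and 140 CPM in controls and between 70.4 and 96.7 (median 87.6) after NAP. Controls 2 and 5 again lay above every NAP library, and the other 3 controls among them (-0.32, adjusted p = 0.313, and 0.05 without controls 2 and 5).

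Gabarapl2, also called GATE-16, was at 48.6, 82.7, 56.9, 41.0 and 88.6 CPM in controls and between 55.6 and 90.9 (median 78.0) after NAP (0.24, adjusted p = 0.543). Gabarapl1 was at 21.5, 34.7, 22.6, 21.6 and 32.5 CPM in controls and between 19.5 and 50.8 (median 29.9) after NAP (0.27, adjusted p = 0.572). The groups overlapped for both genes, and NAP 2 and NAP 5 held the highest levels of Gabarapl1. By FPKM, Gabarap made up 66.6 ± 4.73% of the ATG8 sum in controls and 70.0 ± 3.58% after NAP, Gabarapl2 14.4 ± 2.65% and 15.4 ± 1.90%, and Map1lc3b 9.58 ± 2.39% and 6.86 ± 0.81%. Pseudogenes described as copies of Map1lc3b summed to 29 to 125 counts per library beside 1428 to 2080 for the gene, and those of Gabarapl2 to 3 to 15 beside 896 to 1518, so these levels carry some uncertainty from reads shared with the copies.

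Of the 3 cargo receptors, Nbr1 came closest to the threshold. Nbr1 (chr11:101442933-101472777), a receptor for ubiquitinated aggregates, was at 158, 116, 122, 125 and 115 CPM in controls 1 to 5 and ran from 139 through a median of 185 to 198 after NAP. All NAP libraries stood above 4 of the 5 controls, and NAP 3 and NAP 6 fell below control 1. The means were 127 ± 17.6 CPM (SD, n = 5) and 174 ± 27.2 (n = 6), a log2 change of 0.46 with an SE of 0.16 (edgeR adjusted p = 0.108). DESeq2 gave 0.48 with an adjusted p of 0.0389, and edgeR with GC and length trends removed gave 0.29 with an adjusted p of 0.291.

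Sqstm1 (chr11:50090979-50105303) encodes p62, the receptor whose protein level is widely read as a measure of autophagic flux. It was at 234, 245, 171, 235 and 221 CPM in controls and between 162 and 275 (median 205) after NAP. The groups overlapped, and the interval of its log2 change ran from -0.43 to 0.27 (adjusted p = 0.798). Optn, which encodes optineurin, was at 69.8, 122, 92.7, 45.1 and 126 CPM in controls and between 75.9 and 128 (median 110) after NAP (0.22, adjusted p = 0.630). Among these 3 receptors, Nbr1 made up 29.9 ± 4.73% of the FPKM in controls and 36.1 ± 1.94% after NAP, and Sqstm1 46.8 ± 5.23% and 39.4 ± 5.75%; the shares sum to a fixed total and were not tested.

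Tfeb had the smallest p of all members. It encodes a transcription factor that activates lysosomal and autophagy genes once it enters the nucleus, and lies at chr17:48047962-48103341 (GRCm39, plus strand). Controls 1 to 5 were at 29.2, 35.5, 23.3, 22.7 and 33.4 CPM, and the NAP libraries at 22.2, 12.3, 21.7, 15.8, 13.2 and 13.7. Every NAP library lay below every control, by a small gap between control 4 at 22.7 and NAP 1 at 22.2, and Tfeb was the 1 member whose groups did not overlap, against 4.71% of all tested genes. The mean was 28.8 ± 5.79 CPM in controls (SD, n = 5) and 16.5 ± 4.39 after NAP (n = 6), a log2 change of -0.80 (SE 0.21, interval -1.26 to -0.35). With an edgeR adjusted p of 0.0598 it did not pass.

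The call on Tfeb depended on single libraries and on the tool. The change was -0.91 without NAP 1 (edgeR adjusted p = 0.0375, with 5.58% of all genes called) and -0.90 without NAP 3 (adjusted p = 0.0399, with 5.39% called). Without controls 1 and 4 together it was -0.87 (adjusted p = 0.0445, with 8.28% called). Leaving out controls 2 and 5 instead, where Tfeb was highest, gave -0.58 (edgeR adjusted p = 0.115, with 5.32% called). Tfeb was also uncalled with a replicate block (-0.77, edgeR adjusted p = 0.184) and without NAP 2 (-0.73, edgeR adjusted p = 0.144). DESeq2 gave -0.79 with an adjusted p of 0.0113. Removing trends with GC content and length within each library moved it to -0.47 (adjusted p = 0.210); the Tfeb transcript has 61.4% GC, the highest of the members. Median GC was 48.4% for the 20 members with positive changes and 56.0% for the 13 with negative ones, beside 50.8% for all tested genes with a value.

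**Figure D3:**
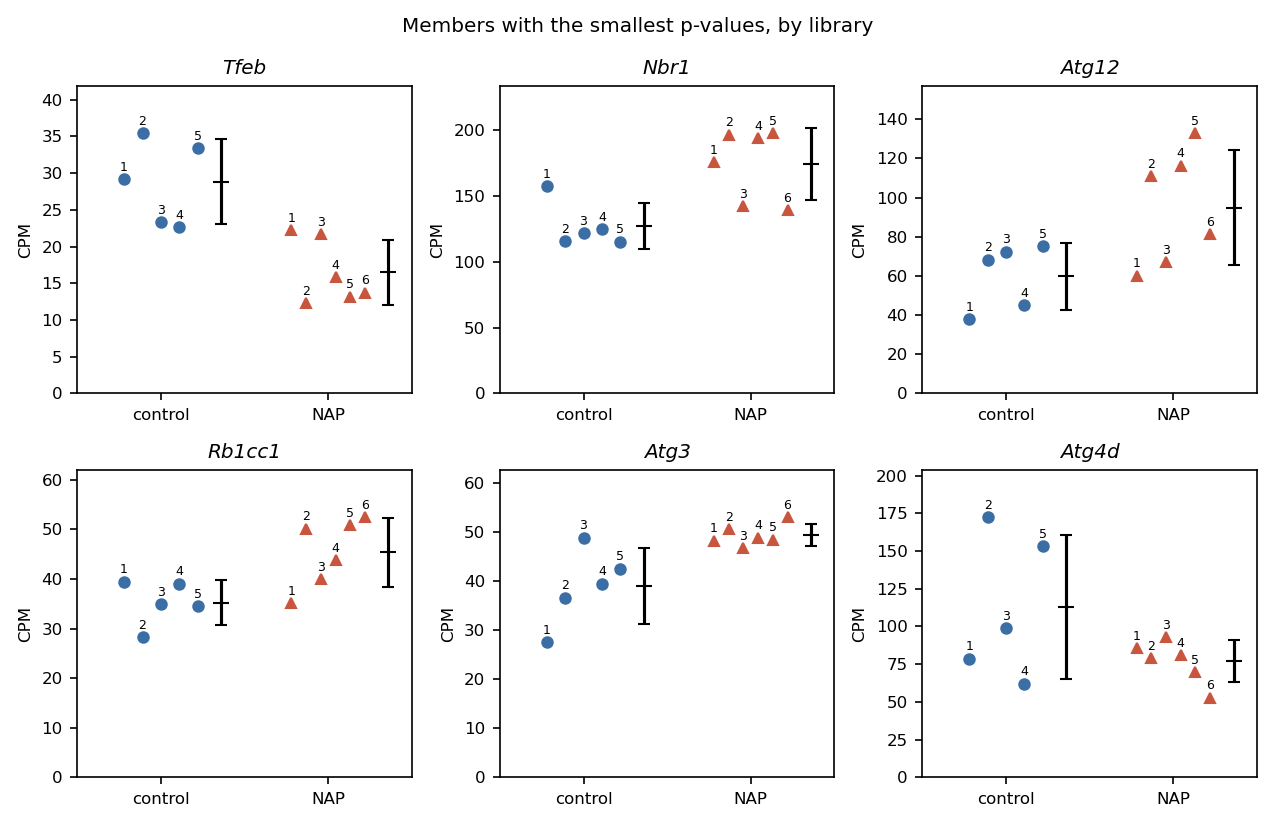
CPM per library of the members with the smallest p-values, in controls (5 points) and after NAP (6 points), with the mean and SD of each group. The groups do not overlap for Tfeb and overlap for the others, such as Nbr1 with means of 127 and 174 CPM.

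The control libraries differed among themselves by more than the NAP libraries for most members, as they did for most tested genes. The SD of log2 CPM was larger in controls for 23 of 33 members (69.7%, against 63.3% of all tested genes), with a median of 0.38 in controls and 0.29 after NAP beside 0.50 and 0.38 over all genes. The highest control was control 2 or control 5 for 23 members (69.7%), compared with 43.0% of tested genes, and the lowest was control 1 or control 4 for 19 (57.6%), compared with 45.2% of tested genes. The ratio of highest to lowest library was 4.21 in controls and 2.00 after NAP for Map1lc3a, 3.21 and 1.44 for Gabarap, 3.13 and 1.98 for Atg9b, and 2.80 and 1.69 for Optn. It was 3.65 and 2.19 for Wipi1 and 3.03 and 1.55 for Ulk2, less abundant genes whose highest control was control 4. NAP libraries lay entirely within the control range for 7 of 33 members, against 26.6% of all tested genes. All 6 lay on one side of the control mean for 12 of 33, against 35.4%. Both counts are near the share over all tested genes and are not particular to the members.

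Markers of cell state moved with the same libraries. The summed CPM of 12 absorptive colonocyte markers was 4348, 19554, 6944, 3504 and 18923 in controls 1 to 5 and between 9270 and 15346 after NAP. That of 10 stem and crypt base markers was 1526, 237, 819, 1868 and 230 in controls and between 397 and 719 after NAP. Controls 2 and 5 thus had the highest colonocyte and lowest stem sums, controls 1 and 4 the reverse, and every NAP library lay between them. Of the tested markers, 0 of 9 stem genes and 1 of 12 colonocyte genes (8.33%) passed the test, beside 2.12% of all tested genes. All 9 stem genes had negative changes, with a median of -0.80, while colonocyte genes had 6 positive and 6 negative. At an unadjusted edgeR p below 0.05 there were 0 stem genes and 4 colonocyte genes (33.3%), all higher, beside 23.6% of all tested genes. No marker was at 0 in all libraries in either list. Among the controls, Gabarap, Map1lc3a and Optn were highest in controls 2 and 5, and Atg9b was lowest there. Map1lc3a was at 13.1 CPM in both NAP 6 and control 4, at colonocyte sums of 10557 and 3504. NAP 2 and NAP 4 had the highest Map1lc3a levels after NAP, 26.2 and 24.7 CPM. They also had the highest colonocyte sums after NAP, 15346 and 14092. NAP 1, 3, 5 and 6 were at 23.7, 20.3, 19.7 and 13.1 CPM, with colonocyte sums of 10100, 9270, 13041 and 10557. Among these libraries the order of Map1lc3a was not that of the sums. The part of cell makeup in the members' values was not tested.

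**Figure D4:**
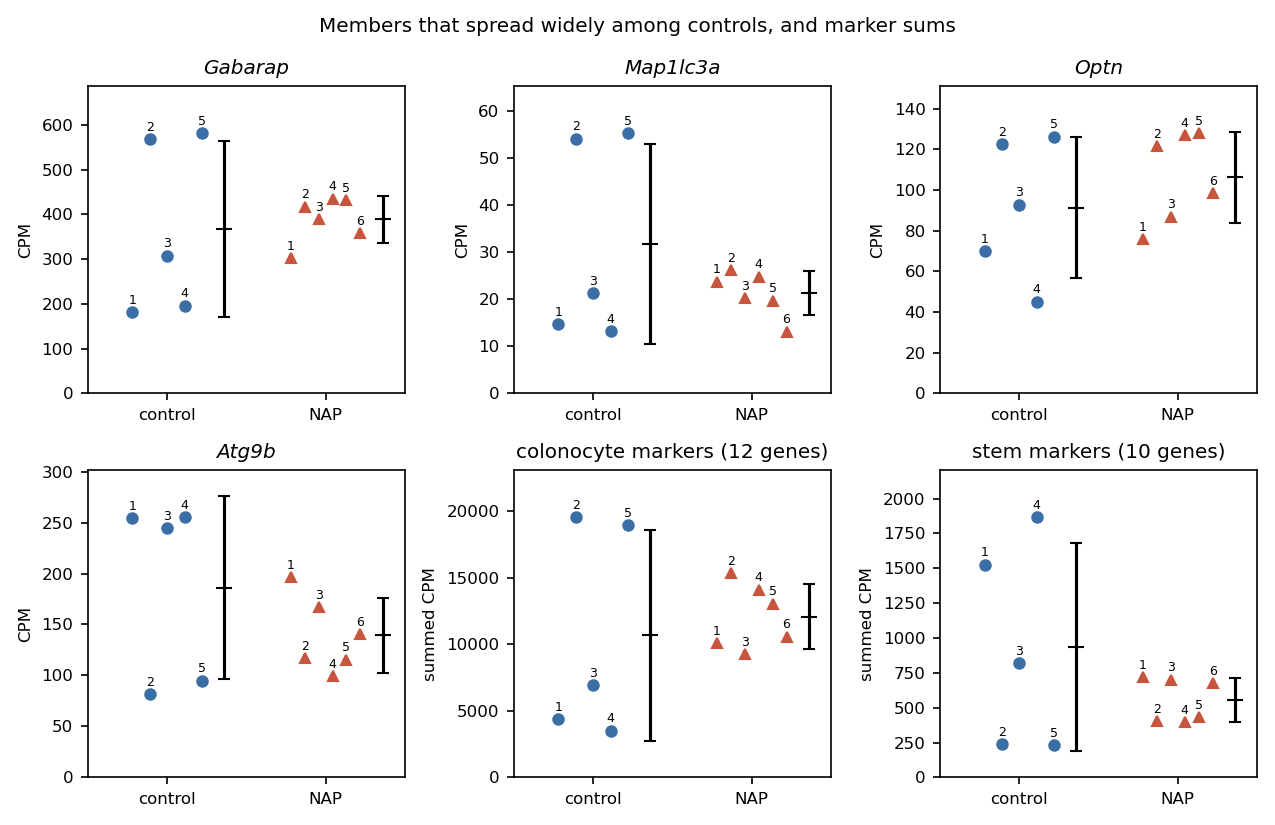
CPM per library of Gabarap, Map1lc3a, Optn and Atg9b, which spread widely among the controls, beside the summed CPM of colonocyte and stem markers. The mean and SD of each group are shown. For Gabarap, controls lie at 182 to 582 CPM around NAP libraries at 301 to 435, as they do for the colonocyte sum at 3504 to 19554 around 9270 to 15346.

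Genes that act around this machinery were read from 7 lists, chosen with earlier results of these data known. The lists held 151 genes, of which 147 were tested. Changes were positive for 65 and negative for 82, with a median of -0.05, and 2 genes passed as higher and 2 as lower. That is 2.72% of the tested list genes, near the 2.12% of all tested genes, so the calls are named as single genes and not as a change of the lists. In the list of mTORC1, AMPK and nutrient sensing (37 tested), Prkab2 rose and Akt1s1 fell. Prkab2, the beta-2 subunit of the energy sensor AMPK, was at 9.82, 8.73, 14.9, 9.30 and 11.2 CPM in controls and at 19.7, 32.6, 21.8, 31.9, 34.7 and 19.2 after NAP. All NAP libraries lay above all controls, a 2.47-fold difference (log2 change 1.30, SE 0.23, adjusted p = 0.0343). Akt1s1, which encodes PRAS40, an inhibitory mTORC1 component, was at 85.6, 89.0, 58.7, 72.8 and 73.8 CPM in controls and at 54.1, 29.6, 55.2, 32.8, 30.2 and 35.9 after NAP. It was lower in all 6 NAP libraries than in any control, by 1.92-fold (-0.94, SE 0.20, adjusted p = 0.0420).

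In the list of TFEB relatives and other transcription regulators (11 of 13 tested), Trp53inp1 rose. Its protein responds to p53 and binds ATG8 proteins, and its transcript was at 68.0, 45.8, 69.1, 84.0 and 53.3 CPM in controls and at 95.6, 160, 90.5, 158, 201 and 95.1 after NAP. The groups did not overlap, and the difference was 2.08-fold (1.06, SE 0.25, adjusted p = 0.0479). Foxo1, a regulator of autophagy genes, had a log2 change of 0.82 (adjusted p = 0.0521). In the list of autophagosome fusion (16 tested), Vps16, a HOPS tethering subunit, fell. It was at 54.6, 63.2, 54.0, 47.5 and 67.3 CPM in controls and at 40.8, 39.6, 41.5, 41.5, 35.9 and 35.5 after NAP. The groups did not overlap, with means of 57.3 ± 7.88 CPM (n = 5) and 39.1 ± 2.75 (n = 6) (-0.55, SE 0.13, adjusted p = 0.0480). Stx7, a late endosomal SNARE, was at 111 ± 28.9 and 214 ± 62.7 CPM (0.95, adjusted p = 0.0595).

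**Figure D5:**
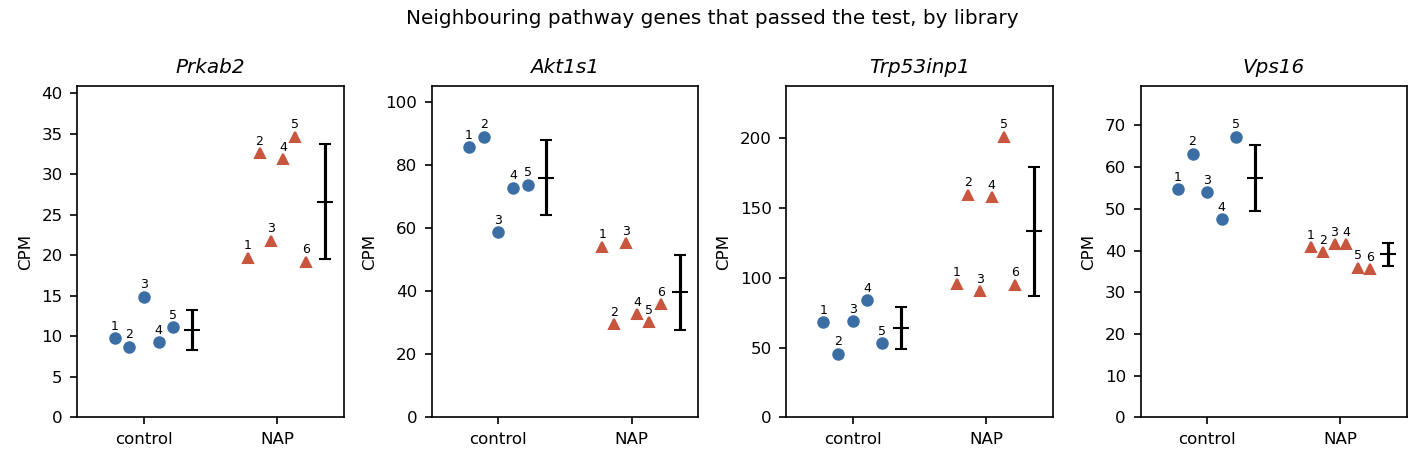
CPM per library of the pathway genes outside the 33 members that passed edgeR's test, in 5 control and 6 NAP libraries, with the mean and SD of each group. Prkab2 and Trp53inp1 are higher and Akt1s1 and Vps16 lower in all NAP libraries than in any control.

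The other 4 lists held no call: 0 of 8 tested in the lipid kinase complexes, 0 of 11 among membrane sources and phosphoinositide readers, 0 of 18 other cargo receptors and 0 of 46 lysosomal and vacuolar ATPase genes. At an unadjusted p below 0.05 these lists held 0, 2, 8 and 8 genes, or 0%, 18.2%, 44.4% and 17.4% of those tested, beside 23.6% of all tested genes; the share of the other cargo receptors was above that of all genes, and no test was made of it. Those with the smallest p were Sh3glb1 (log2 change 0.43) and Pik3c3 (-0.30) in the first, Sec24a, a COPII coat subunit (0.94, adjusted p = 0.0668), and Tex264, a receptor for the endoplasmic reticulum (-0.70, adjusted p = 0.181), in the second, and Ncoa4, the ferritin receptor (1.03, adjusted p = 0.0509), and Phb2 (-0.61, adjusted p = 0.0757) among the receptors. Of the lysosomal genes, the protease gene Ctsh had a log2 change of -0.91 (adjusted p = 0.0615) and the proton pump subunit gene Atp6v1g1 one of -0.59 (adjusted p = 0.0817).

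The 4 calls depended on single libraries and on the processing. Of 24 alternatives run for each gene, the call was lost in 17 for Vps16, 15 for Trp53inp1, 11 for Akt1s1 and 8 for Prkab2, while the direction held in all 24. Each was lost when control 1, control 2, control 5, NAP 2, NAP 4 or NAP 5 was left out, fits in which edgeR called 0 genes in the whole table and 2614 to 3311 had an unadjusted p below 0.05. The adjusted p of Prkab2 in these fits was 0.0789 to 0.112. Vps16 and Trp53inp1 were also lost without control 3 or NAP 6, and Akt1s1 without NAP 6. Leaving out controls 2 and 5 together ended the calls on Vps16, Akt1s1 and Trp53inp1 (adjusted p = 0.0802, 0.0547 and 0.0684).

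Other processing ended calls as well. Without a filter on low counts the adjusted p was 0.184 for Vps16, 0.0603 for Akt1s1 and 0.0593 for Trp53inp1. Vps16 was at 0.0534 with RLE size factors and 0.0515 with upper quartile scaling. With limma on voom weights Vps16 was at 0.0528 and Trp53inp1 at 0.0503, and on log FPKM neither passed. Removing GC and length trends ended all 4, with log2 changes of 1.07 for Prkab2 (adjusted p = 0.0623), -0.45 for Vps16 (adjusted p = 0.0744), -0.38 for Akt1s1 (adjusted p = 0.175) and 0.66 for Trp53inp1 (adjusted p = 0.124).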

How the data were processed

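RNA sequencing of 11 organoid libraries, 5 control and 6 NAP, was analysed, grouped and numbered by their titles. The authors deposited whole-number counts per gene and FPKM values for the same genes. The submitters' processing notes name Trimmomatic 0.39, HISAT2 2.2.1, the GRCm39 build and the featureCounts program of Subread 2.0.8 as tools. For the annotation release, the use of strand, multiply matching reads and the FPKM scaling, the settings were not given in the sources used here. Overlapping and near-identical genes are uncertain for that reason. Coordinates are those of the deposited table.

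Genes kept by filterByExpr were scaled with TMM and compared with edgeR 4.0.16 (quasi-likelihood test, R 4.3.3), all 11 libraries and no covariate, with Benjamini-Hochberg adjustment over all tested genes and a threshold of 0.05. Intervals are 95% intervals of the fit. CPM values are TMM-scaled. Alternatives were other scalings and filters, DESeq2 1.42.0, limma 3.58.1 on voom weights and on log2(FPKM + 1) or log2(FPKM + 0.1), a replicate block, GC and length trends removed, the mitochondrial chromosome left out, controls 2 and 5 or 1 and 4 left out, and each library left out. GC content came from GENCODE M21 through gene identifiers (84.0% of tested genes, all 33 members). Library measures were compared by exact permutation over 462 splits. The edgeR step was tested on simulated counts. No pair of libraries agreed within sampling noise (median chi-square per gene 1.92 to 52.9, with 0.455 for sampling alone, over genes with at least 20 counts in the pair). Some libraries lay much closer than others. Controls 2 and 5 were at 1.92, controls 1 and 4 at 5.81 and NAP 2, 4 and 5 at 2.77 to 3.67 among themselves, beside 52.9 for controls 2 and 4. Whether the close libraries are independent of each other cannot be told from the labels.

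The members, the lists and the alternatives were chosen with earlier results of these data known. Control values per library are given for the 8 members with the smallest p, the 6 with the highest FPKM and the ATG8 family. Their NAP libraries are given by range and median. For Tfeb and the pathway genes past the threshold, values of all 11 libraries are given. The others among the 2 smallest p of each pathway list are named by their change. Optn was described by library after its values were seen.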

Additional observations from a re-analysis of the deposited data

Results flagged for a closer look

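The Nbr1 level of control 1, 157.712 CPM, stood apart from the other 4 controls, the nearest of which was at 124.676 CPM. The count total of NAP 6, 20981200, stood apart from the other 5 NAP libraries, the nearest of which had 18121300. Both were picked out by the gap to the nearest library divided by the range of the group. Such a gap arises by chance in about 1 in 20 groups, and 72 groups were examined.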

How the results depend on the processing

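Calls among the 33 members numbered 0 higher and 0 lower under other scalings and filters, limma, the replicate block, removal of GC and length trends and removal of the mitochondrial chromosome. DESeq2 called 1 higher and 1 lower, the fit without controls 2 and 5 called 1 lower, and that without controls 1 and 4 called 2 lower. With single libraries left out, 0 to 1 were called lower. The median log2 change of the members ranged from 0.03 to 0.17 over all alternatives and from 0.03 to 0.11 with single libraries left out. The replicate block gave a member median of 0.11 and 0 called genes in the whole table, with 2903 at an unadjusted p below 0.05; same-numbered libraries correlated at -0.30 to 0.42, and 2 of 5 correlated best with their own number, so the numbers were not taken as pairs.

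Some uncalled changes switched sign, including larger ones such as that of Map1lc3a. Atg7 was -0.0032 under upper quartile scaling, -0.0034 with a filter at 1 CPM and -0.030 without controls 1 and 4. Without controls 2 and 5, values were 0.012 for Becn1, 0.16 for Atg9a, 0.053 for Map1lc3b, 0.17 for Atg101, -0.14 for Atg2b, -0.086 for Atg2a, 0.11 for Atg4b, -0.066 for Atg13 and 0.40 for Map1lc3a. Without controls 1 and 4, they were -0.29 for Gabarap, 0.0093 for Sqstm1, 0.014 for Atg9b, -0.068 for Optn, 0.082 for Wipi1 and 0.082 for Pik3c3. With GC and length trends removed, they were 0.053 for Becn1, 0.12 for Atg9a, 0.31 for Atg101, -0.023 for Atg2b, -0.11 for Rb1cc1, -0.28 for Atg4c, 0.29 for Map1lc3a and -0.051 for Sh3glb1. With single libraries left out, ranges were -0.050 to 0.12 for Atg13, -0.072 to 0.23 for Atg2a, -0.011 to 0.28 for Atg2b, -0.071 to 0.14 for Atg7 and -0.084 to 0.32 for Gabarap, whose negative values came without control 1 or control 4. The cause was not tested. Wipi1, at 35 to 195 counts per library, and Atg10, at 49 to 132, had the fewest reads.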
